A study of Rattus norvegicus with 12 samples.

Results

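Expression of 10 genes for glycolytic isoenzymes and for the carriers of glucose and lactate was followed in the rat urinary bladder after loss of its nerve supply. The genes were chosen by name, with earlier results of these data known. They are the hexokinases Hk1 and Hk2, the phosphofructokinases Pfkm, Pfkl and Pfkp, the regulatory enzyme Pfkfb3, the lactate dehydrogenase subunits Ldha and Ldhb, the lactate carrier Slc16a1 and the glucose carrier Slc2a1. Of these 10, 9 were measured among the 18166 genes read, each by 1 probe set that carries its symbol alone. Hk1 has no such probe set in the gene table used and was not analysed here. All samples were urinary bladders of female Sprague Dawley rats of about 3 months. The sham group (6 arrays) was sham-operated, and the denervated group (6 arrays) had surgery with freezing of the ganglia on both sides (given as pelvicus freezing in the source names) and was taken 10 days later. Which nerves were lost, and how completely, rests on the operation as labelled, and the labels do not say outright that each array came from its own animal, so p-values measure the spread between these samples.

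Glycolysis splits glucose into pyruvate in the cytosol, and lactate dehydrogenase turns pyruvate into lactate, which leaves or enters the cell through monocarboxylate carriers together with a proton. Several steps are run by isoenzymes from separate genes. Phosphofructokinase-1 is a tetramer of muscle (Pfkm), liver (Pfkl) and platelet (Pfkp) subunits, and lactate dehydrogenase is a tetramer of Ldha (muscle type) and Ldhb (heart type) subunits, of which the first is known for forming lactate readily and the second for favouring its use. Bladder smooth muscle is known to form lactate even when oxygen is present.

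All 9 measured genes passed the test for a difference between the groups, 5 higher and 4 lower after denervation (limma, adjusted p below 0.05 over all 18166 genes). Of all genes tested, 28.7% passed, 11.9% higher and 16.9% lower, so calls were common. As the genes were chosen with earlier results of these data known, values over all genes give scale here and test nothing. Slc2a1, Hk2, Pfkl, Pfkfb3 and Ldha rose, and Pfkm, Pfkp, Ldhb and Slc16a1 fell. Changes were small to moderate, from a fall of 1.78-fold for Ldhb to a rise of 1.48-fold for Pfkfb3. The median absolute change of the 9 genes was 0.51 on the log2 scale, against 0.15 over all genes. The median signed change was 0.21, against -0.04, but with 5 rises and 4 falls it is only the smallest rise, that of Slc2a1. It shows no common direction. Sham and denervated values were fully separate for 5 of the 9 genes (Pfkl, Pfkfb3 and Ldha above, Ldhb and Slc16a1 below), against 13.3% of all genes. In a test against a 1.2-fold change rather than against 0 (treat in limma), Ldhb was called lower and 0 members higher, with 2 higher and 3 lower at an unadjusted p under 0.05 and 6.89% of all genes called. The calls of Hk2 and Slc2a1 were lost in 8 and 10 of the 12 fits that left out 1 array, described below, so that 3 genes were higher without any 1 of the 6 sham arrays or without denervated replicate 5 or 6. Centring each array on its median left 3 genes higher and 4 lower.

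**Figure D1:**
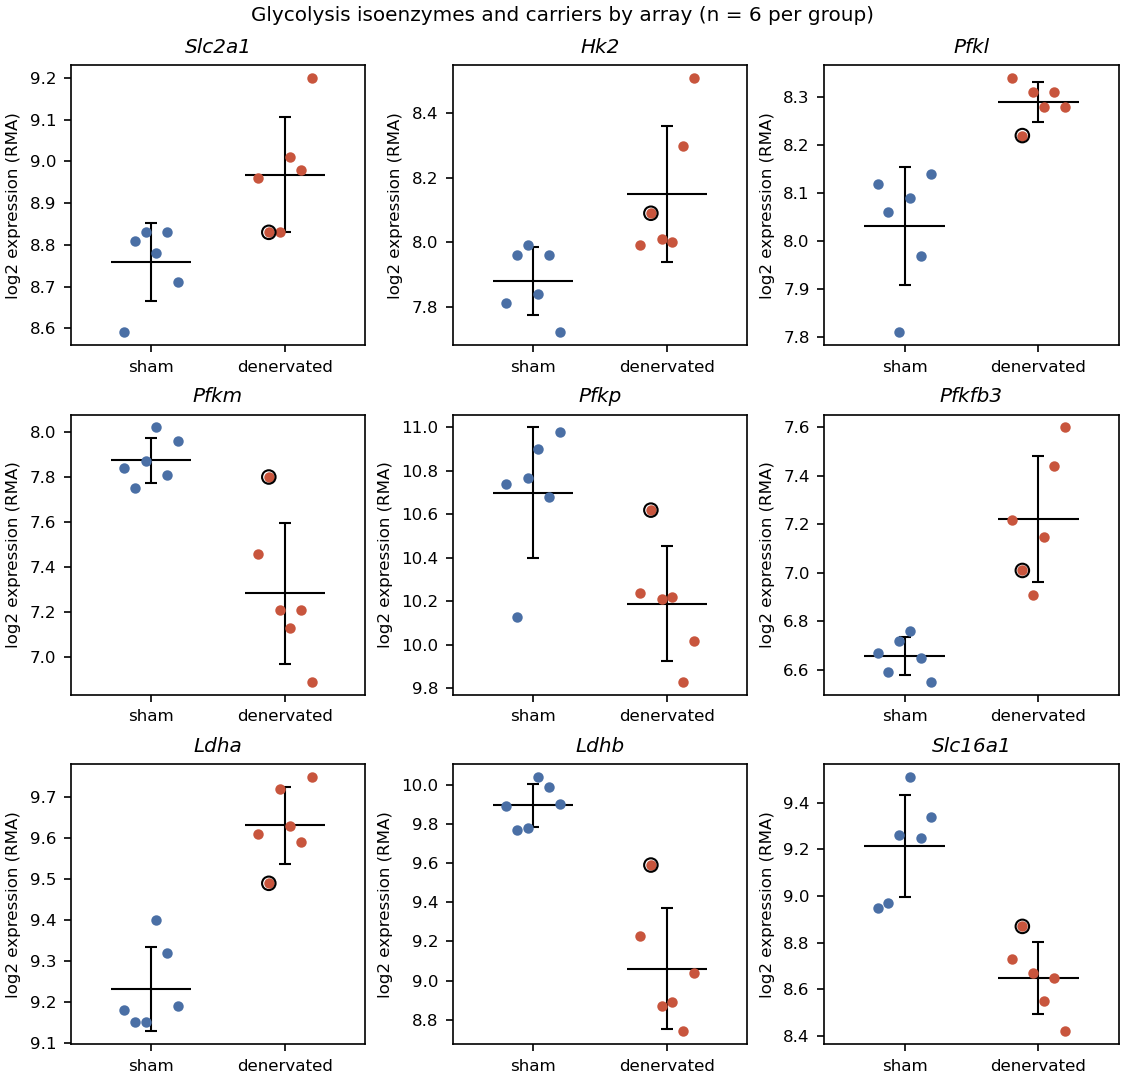
Log2 expression (RMA values, vertical axes that do not start at 0) of the 9 genes in 6 sham and 6 denervated bladders; each point is 1 array, horizontal lines are group means, bars are SD, and the ringed point is denervated replicate 2. Ldhb, at 9.77 to 10.04 in sham and 8.74 to 9.59 in denervated arrays, does not overlap between groups, and the ringed array is the denervated one nearest to the sham mean in 6 of 9 panels.

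Array medians lay between 5.82 and 5.90 on the log2 scale. Denervated replicate 2 stood apart from its group, at -5.84 on a first principal component on which the other 5 denervated arrays lay at 25.9 to 42.5 and the sham arrays at -30.2 to -22.5. It was the denervated array nearest to the sham mean for 6 of the 9 genes (Pfkm, Pfkl, Pfkp, Ldha, Ldhb and Slc16a1). Without it, 5 of the 9 genes were still called higher and 4 lower, when 34.5% of all genes were called. The labels describe the tissue as nearly all smooth muscle, and smooth muscle genes were bright, but so were urothelial ones, with sham means of 12.4 to 12.7 for the 4 uroplakins. Lists of cell type markers moved with the groups. Of 12 macrophage markers all 12 rose, with a mean log2 level of 8.51 to 8.72 in sham and 9.58 to 10.53 in denervated arrays (Cd68 by 2.20 and Lyz2 by 2.11). All 12 urothelial markers fell, from 10.96 to 11.22 down to 10.12 to 10.55 (Krt20 by 1.80, Grhl3 by 0.88). Of 10 smooth muscle markers 7 fell and 1 rose, with levels of 11.62 to 11.82 and 10.93 to 11.61 (Mylk fell by 0.99, Synpo2 by 0.99). Of 11 proliferation markers 10 rose, with overlapping levels of 5.91 to 7.23 and 6.40 to 8.13 (Mki67 by 2.59, Rrm2 by 2.50). The part of these shifts in the changes of single genes was not tested, and in whole tissue fewer cells of a type and less RNA per cell cannot be told apart.

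Of the genes for glucose entry and its first phosphorylation, Slc2a1 and Hk2 rose by small amounts. Slc2a1 encodes GLUT1, the widespread basal glucose carrier. Its lowest, median and highest log2 levels were 8.59, 8.79 and 8.83 in sham and 8.83, 8.97 and 9.20 in denervated arrays. The groups met at their edge, with 4 of 6 denervated arrays above every sham array, and the rise was 0.21 ± 0.07 on the log2 scale, 1.16-fold (SE, n = 6 per group, limma adjusted p = 0.0462). Hk2, the hexokinase of muscle and fat that binds mitochondria, stood at 7.72, 7.90 and 7.99 in sham and at 7.99, 8.05 and 8.51 in denervated arrays. It rose by 0.27 ± 0.09, 1.2-fold (limma adjusted p = 0.0476), with 5 of 6 denervated arrays above all sham arrays. Denervated replicates 5 and 6 had the highest Hk2, at 8.30 and 8.51, and the other 4 lay between 7.99 and 8.09. Both calls were close to the threshold. The Hk2 call held without any 1 of denervated replicates 1 to 4 and was lost without any other single array (adjusted p of 0.0521 to 0.102). For Slc2a1 it held without denervated replicate 2 or 3 and was lost without any other single array (0.0553 to 0.102), while the changes kept their direction at 0.16 to 0.24 for Slc2a1 and 0.20 to 0.30 for Hk2.

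Other carriers and kinases of this step were read beside them. Slc2a4, which encodes GLUT4, the insulin-responsive glucose carrier of muscle and fat, fell most among carriers, from 8.82, 9.01 and 9.07 (lowest, median and highest) in sham to 6.91, 7.60 and 8.48 in denervated arrays, without overlap (-1.38 ± 0.20, 2.61-fold lower, limma adjusted p = 0.000424). Slc2a3 (GLUT3) was not called at -0.12. Of 18 hexose and monocarboxylate carriers and their partners outside the 9 genes, 2 rose, 2 fell and 14 were not called, with a median change of 0.00. Over all genes, 11.9% rose and 16.9% fell, so these counts do not exceed the general share. Slc2a6, a carrier of intracellular membranes, rose by 0.64 ± 0.21 from a dim sham level (median 5.57, below the array medians). That call held when sham replicate 6, denervated replicate 2 or denervated replicate 4 was left out and failed for each of the other 9 arrays (adjusted p of 0.0536 to 0.0782), which left 1 carrier higher. The carriers called higher numbered 4 without denervated replicate 2 and 3 without denervated replicate 4. Hk3, a hexokinase known from myeloid cells, rose 2.07-fold (1.05 ± 0.21, adjusted p = 0.00242), from at most 5.38 in sham to 5.58 to 7.11 in denervated arrays. It was dim in sham bladders, below the array medians, so its fold is uncertain, and the macrophage markers that rose in the same arrays have their levels given above. Adpgk, which phosphorylates glucose with ADP, rose by 0.53 ± 0.13.

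Transcripts of the phosphofructokinase-1 subunits moved in opposite directions. Pfkm had lowest, median and highest levels of 7.75, 7.85 and 8.02 in sham and of 6.89, 7.21 and 7.80 in denervated arrays. It fell 1.51-fold (-0.59 ± 0.12, limma adjusted p = 0.00325), and denervated replicate 2, at 7.80, alone reached into the sham range. Pfkp stood at 10.13, 10.75 and 10.98 in sham and at 9.83, 10.22 and 10.62 in denervated arrays, and it fell 1.42-fold (-0.51 ± 0.15, limma adjusted p = 0.0204). The groups overlapped for Pfkp because sham replicate 2, at 10.13, lay below 4 of the 6 denervated arrays, whereas the other 5 sham arrays held 10.68 to 10.98. With an exact rank-sum test in place of limma the adjusted p of Pfkp was 0.0850. Pfkl, by contrast, rose 1.2-fold, with 7.81, 8.08 and 8.14 in sham and 8.22, 8.29 and 8.34 in denervated arrays (0.26 ± 0.06, limma adjusted p = 0.00771). Its denervated values were the tightest of any of the 9 genes (SD 0.04), and all 6 lay above the sham range.

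Whether the subunit transcripts changed unequally was tested on the difference between 2 genes within each array. Only the shift between groups can be read there, since levels of different probe sets are not comparable. Of 5 pairs planned, 4 could be computed, because Hk1 was not analysed, and p-values were adjusted over those 4. Pfkm minus Pfkl went from -0.16 ± 0.14 in sham to -1.01 ± 0.33 in denervated arrays (SD, n = 6 per group), a shift of -0.85 ± 0.15 (SE), or a 1.80-fold lower ratio, with no overlap (exact permutation test, two-sided, p = 0.00216, the smallest this design can give, adjusted p = 0.00433). Pfkp minus Pfkl shifted by -0.76 ± 0.18, a 1.70-fold lower ratio (exact permutation p = 0.00433, adjusted p = 0.00577), and the groups overlapped. For Pfkp minus Pfkm the shift was 0.09 ± 0.12, within the spread between arrays (exact permutation p = 0.53, adjusted p = 0.53). Without sham replicate 2 it was -0.0035. Both muscle- and platelet-type transcripts thus fell relative to the liver type, and no difference between the first 2 was detected with 6 arrays per group.

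**Figure D2:**
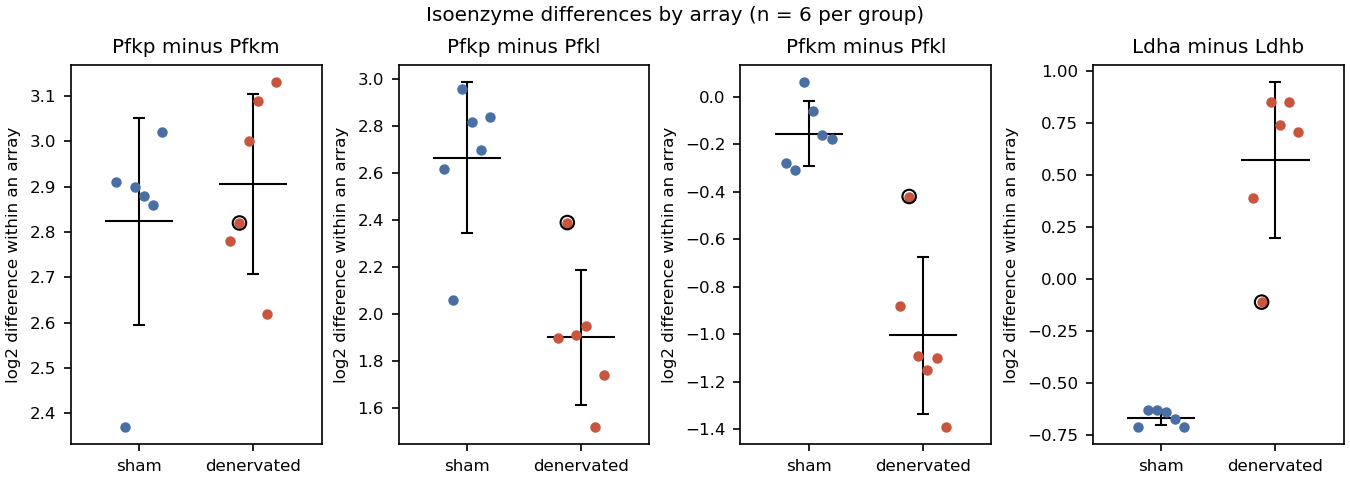
Log2 difference between 2 isoenzyme genes within each array (vertical axes, not starting at 0) for 4 pairs, 6 sham and 6 denervated arrays; points are arrays, lines are means, bars are SD, and the ring marks denervated replicate 2. Ldha minus Ldhb lies at -0.71 to -0.63 in sham and -0.11 to 0.85 in denervated arrays, while the groups overlap for Pfkp minus Pfkm.

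Pfkfb3 rose more than any other of the 9 genes. It makes fructose 2,6-bisphosphate, the strongest activator of phosphofructokinase-1, and is the inducible form of 4 such enzymes. Lowest, median and highest levels were 6.55, 6.66 and 6.76 in sham and 6.91, 7.18 and 7.60 in denervated arrays, a rise of 0.56 ± 0.11, 1.48-fold (limma adjusted p = 0.00170). Every denervated array lay above every sham array, with replicates 5 and 6 highest at 7.44 and 7.60. The other forms did not share this: Pfkfb2 (-0.34 ± 0.07) and Pfkfb4 (-0.34 ± 0.09) fell, and Pfkfb1 was not called at 0.12. Fbp2, the muscle fructose bisphosphatase that works against phosphofructokinase-1, fell by 0.76 ± 0.12 (7.89 to 8.35 in sham, 6.93 to 7.70 in denervated arrays). Of the 9 other genes measured for this control point and for gluconeogenesis, 3 fell and 6 were not called, with a median change of -0.21. Over all genes, 11.9% rose and 16.9% fell. Of these 9 other genes, the limma fit called 0 higher, and 0 were higher at an unadjusted p under 0.05 or by the rank-sum test. Without sham replicate 3, 5 fell, and without denervated replicate 2, 4 fell and 1 rose.

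Transcripts of the lactate dehydrogenase subunits showed the largest shift, in absolute size, of the 4 pairs. Subunit proteins were not measured. Ldha had lowest, median and highest levels of 9.15, 9.19 and 9.40 in sham and of 9.49, 9.62 and 9.75 in denervated arrays. It rose 1.32-fold (0.40 ± 0.07, limma adjusted p = 0.000793). Ldhb stood at 9.77, 9.90 and 10.04 in sham and at 8.74, 8.97 and 9.59 in denervated arrays, and it fell 1.78-fold (-0.83 ± 0.12, limma adjusted p = 0.000441). Neither gene overlapped between groups, and 5.4% of all genes changed more than Ldhb in absolute size. Ldhb remained past the threshold in each of the 23 alternatives run, including the test against 1.2-fold. The within-array difference Ldha minus Ldhb was nearly constant in sham bladders, at -0.67 ± 0.04 (SD, n = 6), and reached 0.57 ± 0.37 in denervated ones (n = 6). The shift of 1.24 ± 0.15 (SE) is a 2.36-fold change of the ratio (exact permutation test, two-sided, p = 0.00216, adjusted p = 0.00433). Since each gene alone was fully separate, in opposite directions, this p could only be the smallest the design gives. It adds no evidence beyond the tests of the single genes. Denervated replicate 2 had the smallest difference of its group, -0.11, and the other 5 held 0.39 to 0.85. Leaving out any 1 array kept the shift between 1.18 and 1.37. The testis form Ldhc was dim (4.17 to 4.85 over all arrays) and rose by 0.33 ± 0.08. Ldhd, which acts on D-lactate, fell by 0.31 ± 0.09, a call lost without sham replicate 5 (adjusted p = 0.0519) or denervated replicate 4 (0.0520).

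Because Ldha and Ldhb moved apart, the 250 bases before the start of each gene are shown, read from RefSeq promoters of build GRCr8. They lie at chr1:106507842-106508091 (plus strand) and chr4:177177409-177177658 (minus strand) and are upstream of the annotated transcript. Capitals mark matches to ACGTG or GCGTG on either strand, the core letters bound by hypoxia-inducible factors, transcription factors known to raise many glycolytic genes when oxygen is low.
Ldha: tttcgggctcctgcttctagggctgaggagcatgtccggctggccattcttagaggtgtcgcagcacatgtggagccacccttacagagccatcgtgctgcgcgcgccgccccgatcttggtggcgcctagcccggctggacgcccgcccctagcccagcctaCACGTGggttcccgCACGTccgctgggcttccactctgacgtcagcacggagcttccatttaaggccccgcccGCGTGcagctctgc
Ldhb: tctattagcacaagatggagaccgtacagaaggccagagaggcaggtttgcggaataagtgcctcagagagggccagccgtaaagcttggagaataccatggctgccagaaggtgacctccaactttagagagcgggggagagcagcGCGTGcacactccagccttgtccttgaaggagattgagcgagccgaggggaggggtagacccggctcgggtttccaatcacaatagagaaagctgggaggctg
Ldha holds 4 matches, of which 2 are the same 6 letters read on both strands (a palindrome that is also the core of an E-box), and Ldhb holds 1. Among the 9 genes, 8 hold at least 1 match in this window, against 40.8% of 21851 promoters of protein-coding genes. That share is over all such promoters, which were not matched to the 9 genes for base composition. The 8 comprise 4 genes that rose and 4 that fell, Slc2a1 with 4 matches and Slc16a1 with 3 among them, and Hk2 has none. A match is only a run of letters, and no binding was measured.

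Lactate carriers also divided. Slc16a1 encodes MCT1, the widespread carrier for lactate and pyruvate. Its lowest, median and highest levels were 8.95, 9.26 and 9.51 in sham and 8.42, 8.66 and 8.87 in denervated arrays, without overlap, a fall of 0.57 on the log2 scale (-0.57 ± 0.10, 1.48-fold lower, limma adjusted p = 0.00144). The narrowest gap was between sham replicate 1, at 8.95, and denervated replicate 2, at 8.87. Slc16a7, or MCT2, a carrier of high affinity, fell 1.98-fold, from 9.89 to 10.28 in sham down to 8.88 to 9.46 in denervated arrays (-0.98 ± 0.10, adjusted p = 6.88e-05). Slc16a3, or MCT4, known for lactate export from glycolytic cells, rose 1.47-fold, from 6.83 to 7.17 up to 7.19 to 7.76 (0.56 ± 0.10, adjusted p = 0.00109). Neither of these 2 overlapped between groups. Bsg, or basigin, which brings MCT1 and MCT4 to the cell surface, was not called, with a change of 0.00 and a 95% interval of -0.18 to 0.18.

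**Figure D3:**
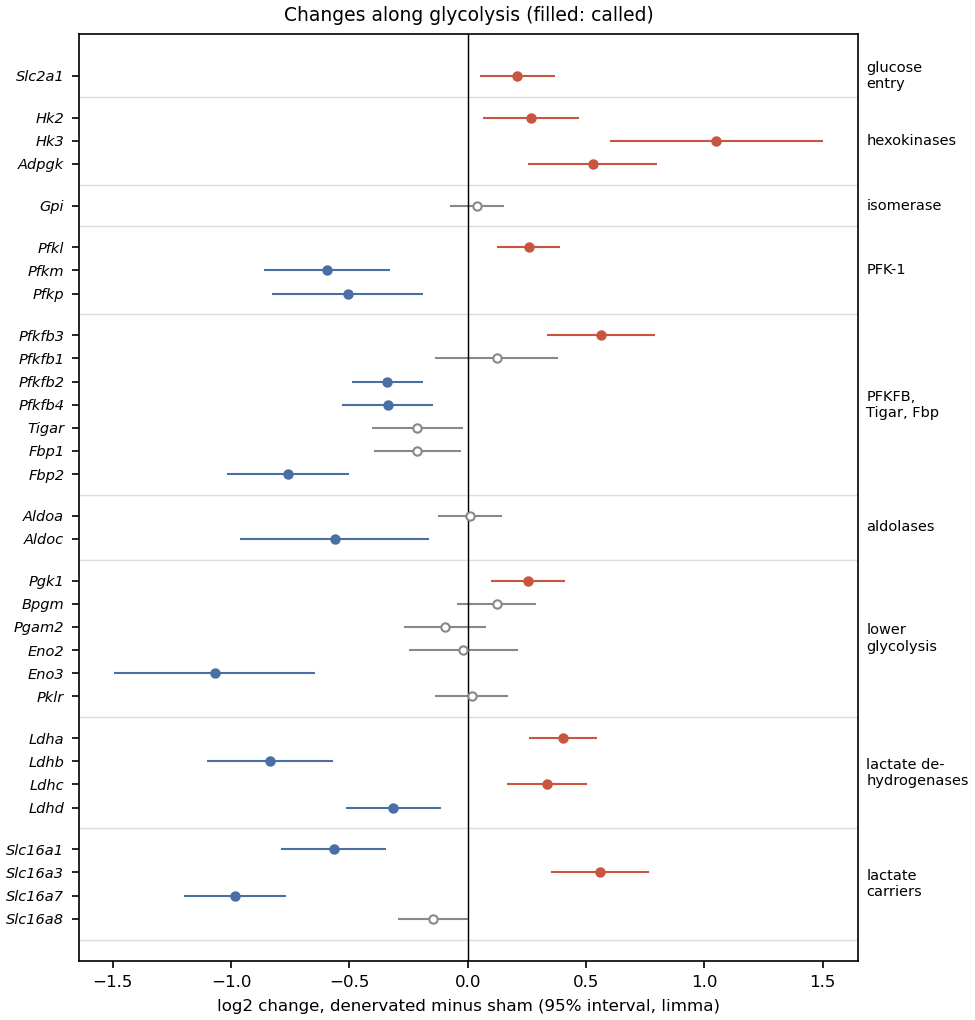
Log2 change, denervated minus sham, with its 95% interval from limma (horizontal axis, intervals not adjusted for the number of genes), for genes ordered from glucose entry to lactate transport; filled points were called (red higher, blue lower) and open points were not. Within phosphofructokinase, lactate dehydrogenase and the lactate carriers, called genes lie on both sides of 0.

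The remaining enzymes from glucose to lactate divided as well. Of 21 listed, 13 were measured: 4 rose, 3 fell and 6 were not called, and the median change was 0.02. Over all genes, 11.9% rose and 16.9% fell. Pgk1, which makes ATP in the lower pathway, rose by 0.26 ± 0.07. Eno3, the muscle enolase, fell 2.10-fold from 6.57 to 7.74 in sham down to 5.82 to 6.45 in denervated arrays (-1.07 ± 0.20, limma adjusted p = 0.00157), whereas Eno2, the neuronal enolase, was not called at -0.02. Aldoc, the brain-type aldolase, fell by 0.56 ± 0.19 and Aldoa, the muscle-type one, was not called at 0.01. The Aldoc call held when sham replicate 3, sham replicate 5 or denervated replicate 2 was left out and failed for each of the other 9 arrays (adjusted p of 0.0552 to 0.0823). Without denervated replicate 4, 1 gene of this list fell. Gpi, the isomerase between the hexokinase and phosphofructokinase steps, was not called at 0.04. Pkm, Gapdh, Tpi1, Eno1, Pgam1 and Hkdc1 were among those with no probe set under their symbol alone and were not analysed here. Of 10 listed skeletal muscle markers 8 were measured, with 1 higher (Acta1, 1.56), 2 lower (Ckm, -1.07, and Tnnc2, -0.78) and overlapping mean levels of 7.17 to 7.53 in sham and 6.99 to 7.31 in denervated arrays. Their part in the falls of Pfkm and Eno3 was not tested.

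Genes for pyruvate entry into mitochondria and for pyruvate dehydrogenase and its control mostly fell. Of 13 measured, 8 fell, 1 rose and 4 were not called, with a median change of -0.32 against -0.04 over all genes. Over all genes, 11.9% rose and 16.9% fell. With 1 array left out, 6 to 9 genes of the list were called lower. The list mixes the enzyme with kinases and phosphatases of opposite effect, so these counts give no direction for pyruvate use. Mpc1, of the mitochondrial pyruvate carrier, changed by -0.22 (limma adjusted p = 0.0267). Pyruvate dehydrogenase subunits Pdhb (-0.49 ± 0.07), Pdha1 (-0.40 ± 0.05) and Dld (-0.41 ± 0.08) fell, each without overlap between groups. Among the kinases that switch this enzyme off, Pdk2 fell from 8.94 to 9.20 in sham to 7.89 to 8.98 in denervated arrays (-0.68 ± 0.14), and Pdk3 rose from 8.13 to 8.29 up to 8.34 to 8.75 (0.44 ± 0.07). Pdk1 was not called at -0.03 (95% interval -0.18 to 0.11), nor was Pdk4 at -0.46 ± 0.19. Pdk4 was called lower without denervated replicate 2 (adjusted p = 0.0423) or replicate 4 (0.0197). Pdp2, a phosphatase that switches the enzyme back on, fell by 0.67 ± 0.11. Averaged over the 13 genes, sham arrays held 8.58 to 8.65 and denervated arrays 8.28 to 8.34, apart from replicate 2 at 8.50.

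Some genes for the breakdown of glycogen also fell. Of 15 genes of glycogen metabolism measured, 7 fell, 1 rose and 7 were not called, and the median change was -0.19. Over all genes, 11.9% rose and 16.9% fell. With 1 array left out, 5 to 8 genes of the list were called lower. Pygm, the muscle glycogen phosphorylase, fell 3.05-fold from 8.62 to 9.16 in sham to 6.83 to 8.46 in denervated arrays (-1.61 ± 0.24, limma adjusted p = 0.000450). Pygb, the brain form, fell 1.85-fold (-0.89 ± 0.14), and Pygl, the liver form, fell by 0.27 (limma adjusted p = 0.0341). Of 5 measured subunits of phosphorylase kinase, which activates these enzymes, 3 fell: Phkg1 by 0.70 ± 0.14, Phkb by 0.39 ± 0.06 and Phka2 by 0.40 ± 0.13. Phkg1 was dim in denervated arrays (median 5.53, below the array medians), so the size of its fall is uncertain. Phka1 (-0.19, limma adjusted p = 0.0543) and Phkg2 (-0.14, adjusted p = 0.0558) were not called. Ppp1r3b, which brings a phosphatase to glycogen, fell by 0.53 ± 0.13. The Phka2 call was lost without any 1 of sham replicates 2 to 5 or denervated replicates 3 to 5 (adjusted p of 0.0542 to 0.0774). Gys1, glycogen synthase, was not called at 0.06. The single rise, that of Pgm1 (0.21), was lost when any of sham replicates 1 and 2 or of denervated replicates 1, 3 and 4 was left out, after which limma called 0 genes of the list higher.

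**Figure D4:**
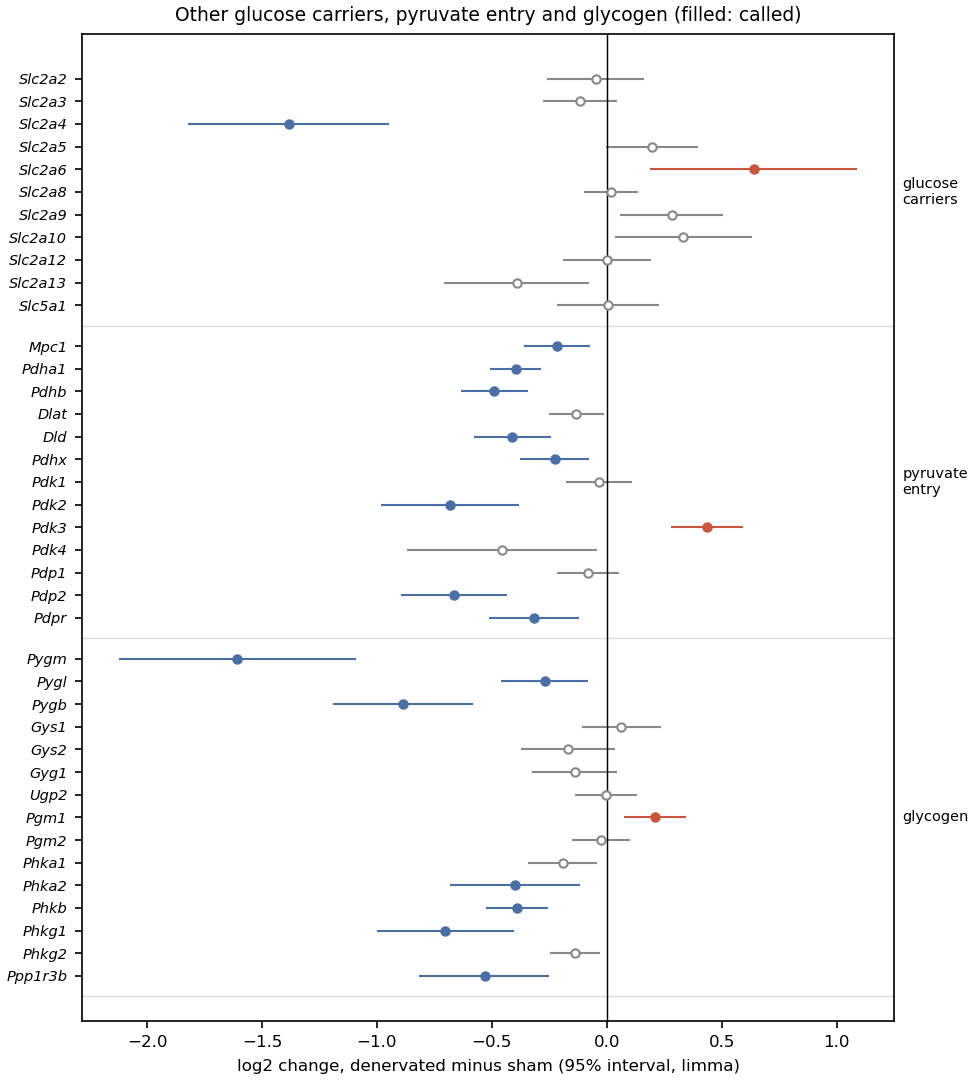
Log2 change, denervated minus sham, with its 95% interval from limma (horizontal axis, intervals not adjusted for the number of genes), for other glucose carriers, genes of pyruvate entry into mitochondria with pyruvate dehydrogenase and its control, and genes of glycogen metabolism. Filled points were called and open points were not. Slc2a4 and Pygm lie farthest to the left, at -1.38 and -1.61.

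Of 5 genes of the pentose phosphate pathway measured, limma called 0, with 0 at an unadjusted p under 0.05 and 0 by the rank-sum test. Without denervated replicate 6, 1 of them was lower. Of 19 listed genes of the hypoxia response that were measured, 4 rose, 2 fell and 13 were not called, with a median change of -0.05. Over all genes 11.9% rose and 16.9% fell. The list holds regulators such as Hif1a and leaves out the 9 genes, so it does not cover the whole response. P4ha1, a collagen prolyl hydroxylase, rose by 0.75 ± 0.11, Car9, a carbonic anhydrase, by 0.93 ± 0.24, the secreted hormone Stc2 by 0.56 ± 0.13 and the growth factor Pdgfb by 0.41 ± 0.10. Egln3, a hydroxylase that marks hypoxia-inducible factors for degradation, fell by 0.98 ± 0.19, and the vascular growth factor Vegfa fell by 0.30 ± 0.10. Hif1a itself was not called at 0.16 ± 0.06 (limma adjusted p = 0.0740), with a 95% interval of 0.02 to 0.29. It was close to the threshold and was called higher in 4 of 23 alternatives. These were an exact rank-sum test, limma with trend and robust settings, and fits to the brighter genes or without the dimmest 25% of genes. The Vegfa call held when sham replicate 3, denervated replicate 2 or denervated replicate 6 was left out. It failed for each of the other 9 arrays (adjusted p of 0.0527 to 0.0868), so that 1 gene of the list fell, and without denervated replicate 2, 3 fell.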

How the data were processed

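Each of 12 bladder RNA samples was read on its own array. The authors deposited log2 values for 36685 probe sets, made by RMA (background correction, quantile normalization, probe set summary) in Affymetrix Expression Console 1.4.1.46, per the submitters' processing notes. No scan batch is named in the labels. Precision is limited by having 6 arrays per group. The values were tested as deposited. Groups came from sample titles. Names came from GEO's annotation of the platform: 18511 probe sets carry 1 gene, 575 several (not used by name) and 17599 are unnamed here. By gene identifier 18394 matched RefSeq (GRCr8), with 0 symbols changed. The brightest probe set stood for each of 18166 genes.

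Groups were compared with limma 3.58.1 in R 4.3.3 (lmFit, eBayes, two-sided, Benjamini-Hochberg over all genes, threshold 0.05). Pairs of isoenzymes were compared with exact permutation tests (SciPy 1.17.1). Members, gene lists and tests were chosen with earlier results of these data known. Named are all members, up to 6 called genes of each pathway list and 2 of each marker list by absolute change, and Hif1a, Slc16a3, Bsg, Pkm and Pdk1 to Pdk4. Genes named beside these (among them Gpi, Aldoa, Eno2, Pgk1, Gys1, Pgm1, Pygl, Phka1, Phkg2, Slc2a3, Pfkfb1, Mpc1, Tnnc2 and the uroplakins) were chosen after their values were seen. The fit was checked on simulated data. Marker lists not described in the text were endothelium (5 of 8 higher, Sox18 by 1.06 and Cdh5 by 1.00), fibroblast (6 of 10 higher, Fap by 1.58 and Thy1 by 1.22), Schwann cell and axon (6 of 8 lower, Scn7a at -3.15 and Nefl at -2.23), lymphocyte (8 of 12 higher, Jchain by 2.92 and Klrk1 by 2.31), adipocyte (2 of 8 lower, Plin4 at -0.85 and Fabp4 at -0.40, the latter lost in 8 of 12 fits without 1 array) and red blood cell (limma called 0 of 4, with 0 at an unadjusted p under 0.05 and 0 by the rank-sum test).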

Additional observations from a re-analysis of the deposited data

Results flagged for a closer look

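Single arrays stood apart from the other 5 of their group in 14 of 96 groups of values examined (by Dixon's criterion on the gap to the nearest array over the group's range, which chance meets in about 1 group in 20). Of the members, Pfkp was low in sham replicate 2 (10.13, others 10.68 to 10.98), which also set apart Pfkp minus Pfkm (2.37, others 2.86 to 3.02) and Pfkp minus Pfkl (2.06, others 2.62 to 2.96) in that array. Denervated replicate 2 lay on the sham side of its group for Pfkfb4 (7.09, others 6.57 to 6.75), Pdk3 (8.34, others 8.60 to 8.75), Pdha1 (10.99, others 10.81 to 10.87), Pygm (8.46, others 6.83 to 7.44), Ppp1r3b (7.97, others 7.08 to 7.32) and Phkb (8.95, others 8.61 to 8.73). Other single values were Pdk2 in sham replicate 5 (8.94, others 9.11 to 9.20), Ppp1r3b in sham replicate 5 (8.10, others 7.78 to 7.85), Hif1a in denervated replicate 6 (11.20, others 10.93 to 11.02), Bsg in sham replicate 1 (10.19, others 10.26 to 10.29) and Pdk4 in sham replicate 6 (8.53, others 7.82 to 8.05).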

How the results depend on the processing

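All 9 members kept their direction in all 23 alternatives. Members called higher numbered 5 in the main test, 3 after median centring, 3 with the replicate block, 3 with all probe sets adjusted together and 0 under treat at 1.2-fold, and 3 to 5 with 1 array left out. Members called lower numbered 4, with 1 under treat, 3 with the replicate block (Pfkp lost, adjusted p = 0.0648) and 3 with the exact rank-sum test, and stayed at 4 with any array left out. Treat called 756 genes higher and 496 lower over the whole table. Same-numbered arrays share only a number, with correlations of their deviations from -0.112 to 0.101. With the replicate block, the paired exact test of 6 pairs cannot give a two-sided p below 0.03125, so missing the threshold after adjustment says little about these shifts: Pfkp minus Pfkl shifted by -0.76 (adjusted p = 0.0833), Pfkm minus Pfkl by -0.85 (0.0625) and Ldha minus Ldhb by 1.24 (0.0625). Leaving out 1 array, Pfkp minus Pfkm lay between -0.0035 and 0.14. Bsg, not called, stood at -0.01 after quantile normalization, at -0.02 after centring and between -0.04 and 0.06 with 1 array left out. The cause of these moves was not tested. No detection calls were used, so the folds of dim genes such as Hk3, Slc2a6 and Phkg1 are uncertain.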
